A study of Mus musculus with 3 samples.

Results

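Cells high in Lum, Dcn and Mmp3 that carried neither the leukocyte gene Ptprc nor the endothelial gene Pecam1 were taken from droplet 3' single-cell RNA libraries of LLC1 tumours grown in the mouse tibia. A cell was chosen by its measured values: 300 or more genes, at most 15% of UMIs from mitochondrial genes, 0 UMIs of Ptprc and of Pecam1, and 10 or more UMIs of Lum, Dcn and Mmp3 together per 10000 UMIs of the cell. The rule selected 3057 cells, called members here, of 28522 cells that passed the gene and mitochondrial filters and of 20228 such cells with neither Ptprc nor Pecam1. The other 17171 cells without Ptprc and Pecam1 are the comparison population, called the other negative cells. The working name of these cells was stromal-like, and the data went against it: nearly all members carried tumour keratin or Hmga2 transcripts, and 12 of 3057 carried the collagen I profile of fibroblasts. They are therefore called Lum, Dcn and Mmp3 high cells here.

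Lumican and decorin are small leucine-rich proteoglycans that bind collagen fibrils and are commonly read as fibroblast genes, while Mmp3, stromelysin-1, is a secreted metalloproteinase that cleaves matrix proteins and activates other metalloproteinases. In tumours these genes are usually assigned to the stroma, yet carcinoma lines of mesenchymal character can transcribe them too. LLC1 is the Lewis lung carcinoma line of mouse.

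All hosts were 8 weeks old, received 1000000 LLC1 cells in 10 µL into the tibia, and gave their tumours on day 14. The groups were wild type, DMP1-Cre Mfn2-/- and DMP1-Cre Rhot1-/-, each 1 library made from 3 tumours of 3 mice mixed in equal parts. Mfn2 encodes a mitochondrial fusion GTPase, Rhot1 encodes the mitochondrial transport GTPase Miro1, and Dmp1-Cre acts mainly in osteocytes. The genotypes are those of the hosts, and every group received LLC1 cells. No Cre was named for the wild-type hosts, so Cre carriage and gene deletion cannot be told apart. Cells cannot be traced to mice in the files used here. Values are given below in the order wild type, Mfn2, Rhot1. With 1 library per genotype no test between genotypes was possible, and parentheses give 95% counting intervals, which leave out variation between mice and between cells.

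The deposited barcodes numbered 9393, 10016 and 9534 and carried 112088653, 118123705 and 118223251 UMIs. Median depth was 15891, 14263 and 14016 UMIs in members and 13518, 13118 and 14600 UMIs in the other negative cells. The libraries shared 20 to 35 barcodes pairwise, of which 1 was a member in both libraries. Among members, Mfn2 stood at 15.8, 19.0 and 19.0 CPM, the UMIs of a gene per 1000000 UMIs of the population, and Rhot1 at 25.8, 22.9 and 24.6 CPM. These tumour-rich cells and 3' tags give no check of a deletion made in host bone cells.

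The members' rule genes are a description of how they were chosen. Dcn (ENSMUSG00000019929, mm10 chr10:97479609-97518143, plus strand) stood at 2150, 1555 and 1499 CPM in members and at 107, 156 and 132 CPM in the other negative cells. Lum (ENSMUSG00000036446, chr10:97565128-97572703, plus strand) stood at 517, 191 and 329 CPM against 31.5, 11.1 and 14.9 CPM. Mmp3 (ENSMUSG00000043613, chr9:7445822-7455975, plus strand) stood at 287, 219 and 251 CPM against 34.6, 25.3 and 24.3 CPM. Dcn gave the most rule UMIs in 77.3%, 84.8% and 81.2% of members, Lum in 14.3%, 7.15% and 9.78%, and Mmp3 in 8.35%, 8.09% and 9.07%. Thus Dcn set membership for most cells, and all 3 genes were seen together in 32.5%, 16.3% and 24.2% of members. The median level was 23.8, 16.0 and 16.5 rule UMIs per 10000, and just inside the threshold, at 10 to 11, lay 65, 93 and 70 cells, against 79, 98 and 74 cells at 9 to 10.

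Lum and Dcn lie next to each other on chromosome 10, followed by their relatives Kera (97606879-97613692) and Epyc (97644068-97682454). Those neighbours were close to silent in members. Kera had 0 UMIs in the wild-type and Mfn2 libraries and stood at 0.0993 CPM in the Rhot1 library, and Epyc had 0 UMIs in every library, which allows up to 0.119, 0.236 and 0.298 CPM. Mmp3 lies in the metalloproteinase cluster of chromosome 9, between Mmp1b and Mmp1a, and the cluster also holds Mmp10 (stromelysin-2, 7502352-7510240) and Mmp13 (collagenase-3, 7272514-7283331). The 150 bases before the RefSeq start of these 3 genes (GRCm38.p6, plus strand) are shown because Mmp10 and Mmp13 were higher in the members led by Mmp3, as given below. Capitals mark TGANTCA, the letters bound by AP-1 factors, and TATAAA, the TATA box letters, both searched on both strands without overlap between them.
Mmp3, chr9:7445672-7445821: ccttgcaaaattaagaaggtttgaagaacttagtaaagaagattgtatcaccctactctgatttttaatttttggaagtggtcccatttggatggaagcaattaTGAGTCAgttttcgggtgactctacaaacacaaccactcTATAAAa
Mmp10, chr9:7502192-7502341: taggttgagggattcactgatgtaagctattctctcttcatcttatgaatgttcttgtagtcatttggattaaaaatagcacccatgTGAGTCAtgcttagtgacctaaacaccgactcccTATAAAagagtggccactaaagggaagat
Mmp13, chr9:7272364-7272513: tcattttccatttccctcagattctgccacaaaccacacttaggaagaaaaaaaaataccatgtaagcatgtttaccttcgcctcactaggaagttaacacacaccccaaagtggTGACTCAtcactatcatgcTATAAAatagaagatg
Each window held 1 TGANTCA match, starting 46, 63 and 35 bases before the start of Mmp3, Mmp10 and Mmp13, and 1 TATAAA match, starting 7, 29 and 16 bases before it. Of 32851 mouse promoter windows of this length, 4.24% held TGANTCA and 7.57% held TATAAA. The matches are letters in a sequence and no measurement of binding. Promoters of Lum and Dcn were not used here.

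Members took a larger share of the wild-type tumours than of the others. They numbered 1509 of 9295 wild-type cells, or 16.2% (15.5 to 17.0), 853 of 9868 Mfn2 cells, or 8.64% (8.10 to 9.22), and 695 of 9359 Rhot1 cells, or 7.43% (6.90 to 7.98). The share ratios to wild type were 0.533 (0.492 to 0.576) and 0.457 (0.420 to 0.498), and among Ptprc- and Pecam1-negative cells alone they were 0.463 and 0.404. The gap was widest at the highest levels. Cells with 50 or more rule UMIs per 10000 were 3.14%, 0.476% and 0.583% of the negative cells, while cells at 10 to 20 were 10.1%, 7.81% and 6.51%. Thinning every cell to 2000 UMIs left the log2 share ratios below 0, at -0.62 and -0.84 in place of -0.91 and -1.13, while a threshold of 20 per 10000 gave -1.77 and -1.87. Rule-gene RNA in leukocytes was also highest in the wild-type library, with Dcn at 252, 150 and 87.8 CPM and Lum at 64.8, 16.2 and 16.5 CPM, and its part in the share gap was not tested.

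**Figure D1:**
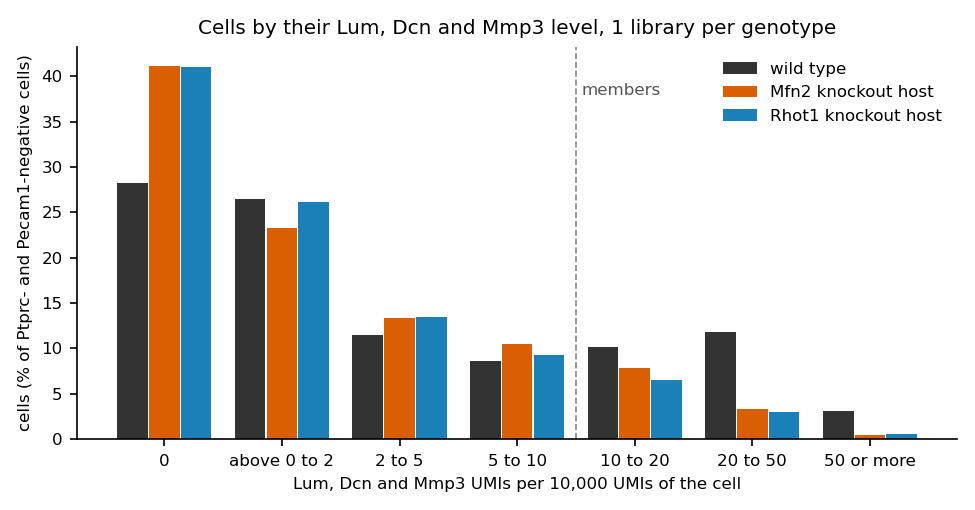
Bars give the share of Ptprc- and Pecam1-negative cells (y axis, %) in bands of Lum, Dcn and Mmp3 UMIs per 10000 (x axis), 1 library per genotype, with members right of the dashed line. Wild-type cells at 20 to 50 were 11.8% of negative cells, against 3.32% and 3.03% in the Mfn2 and Rhot1 libraries.

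Members carried the markers of the tumour. At least 1 UMI of Krt8, Krt18 (simple epithelial keratins) or Hmga2 (an oncofetal chromatin protein) was found in 2893 of 3057 members, or 94.6% (93.8 to 95.4), against 87.8% of the other negative cells and 42.7% of leukocytes, at median depths of 14751, 13795 and 4013 UMIs. Leukocytes were cells with Ptprc and 3 or more UMIs of Tyrobp, Fcer1g and Laptm5. Their share shows how often a tumour transcript was counted in cells of another type. At 2000 UMIs per cell the 3 shares were 85.0%, 81.8% and 28.2%. The 3 libraries gave like values for members, at 93.9%, 96.3% and 94.2%. Of members with 2000 or more UMIs, 99.1%, 99.5% and 98.6% carried a tumour transcript.

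The levels of the tumour markers were close to, or above, those of the other negative cells, with Krt18 as the exception. Krt8 stood at 506, 704 and 588 CPM in members and 598, 675 and 602 CPM in the other negative cells, so it was lower in members of the wild-type and Rhot1 libraries and higher in the Mfn2 library. Hmga2 stood at 549, 596 and 581 CPM against 474, 599 and 563 CPM, ratios of 1.16, 0.995 and 1.03. Leukocytes held Krt8 at 237, 311 and 223 CPM and Hmga2 at 168, 257 and 201 CPM. Pthlh (the hormone-related protein of osteolytic tumours), Dkk2 (a Wnt modulator), Etv1 (an ETS factor) and Prxl2a were higher in members of all 3 libraries. Dkk2, for example, stood at 176, 207 and 325 CPM against 70.6, 132 and 156 CPM. Krt18 was lower in all 3, at 21.1, 27.7 and 28.9 CPM against 55.6, 42.2 and 40.1 CPM. Krt7, Krt19, Epcam and Cdh1, markers of polarised epithelium, were at or below 0.0993 CPM in members. Of the 7 tumour genes at a mean of 10 CPM or more, 4 were thus higher in all 3 libraries, beside 20.8% of all 8132 such genes, and 1 was lower, beside 46.1%. The list's median log2 ratio was 0.69, and the median over all 8132 genes was -0.06. Krt8, Krt18 and Hmga2 alone had mean log2 ratios of -0.07, -0.72 and 0.08. The list was chosen with earlier results of these data known, so its count and median are a description.

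Fibroblast markers divided into a present and an absent group. Of 15 genes, 4 reached a mean of 10 CPM, and all 4 were higher in members of every library, beside 20.8% of all genes: Pdgfra (a PDGF receptor), Dpt (dermatopontin, a Dcn-binding matrix protein), and the mesenchymal transcription factors Prrx1 and Twist2. Pdgfra stood at 58.0, 51.1 and 56.1 CPM in members, 26.1, 28.3 and 23.1 CPM in the other negative cells and 12.9, 12.2 and 8.79 CPM in leukocytes. Dpt stood at 105, 66.9 and 94.0 CPM against 34.6, 18.8 and 22.6 CPM. Prrx1 stood at 228, 214 and 251 CPM against 140, 163 and 166 CPM, so the tumour-marked cells below the threshold expressed it as well. The median log2 ratio of these 4 genes was 0.76.

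The remaining 11 fibroblast genes were low in members. Pdpn stood at 7.41, 6.13 and 6.85 CPM, Pdgfrb stood at 5.79, 3.77 and 3.77 CPM, Thy1 at 0.555, 2.36 and 0.695 CPM, and Fap at 0.634, 0.393 and 1.39 CPM. Mfap5, Pi16, Clec3b, Col14a1, Col15a1 and Fbln1 were at or below 2.10 CPM in every library, and Tcf21 had 0 UMIs. Several defining markers of other stromal cells were near 0 as well. The bone genes Bglap, Bglap2, Sp7, Alpl, Ibsp, Dmp1, Sost and Mepe, the marrow stroma genes Lepr and Cxcl12, and the mural genes Rgs5, Myh11 and Acta2 were at or below 1.29 CPM. The osteocyte gene Phex went the other way, at 9.44, 15.9 and 13.1 CPM in members against 4.69, 7.58 and 6.44 CPM, ratios of 2.01, 2.10 and 2.04. Runx2, Sox9 and Kitl, which also mark bone, cartilage and marrow stroma, were detected in members, at 26.3 to 27.1, 76.6 to 136 and 86.6 to 89.9 CPM. They were detected at 26.1 to 28.6, 57.9 to 69.1 and 76.1 to 77.1 CPM in the other negative cells.

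**Figure D2:**
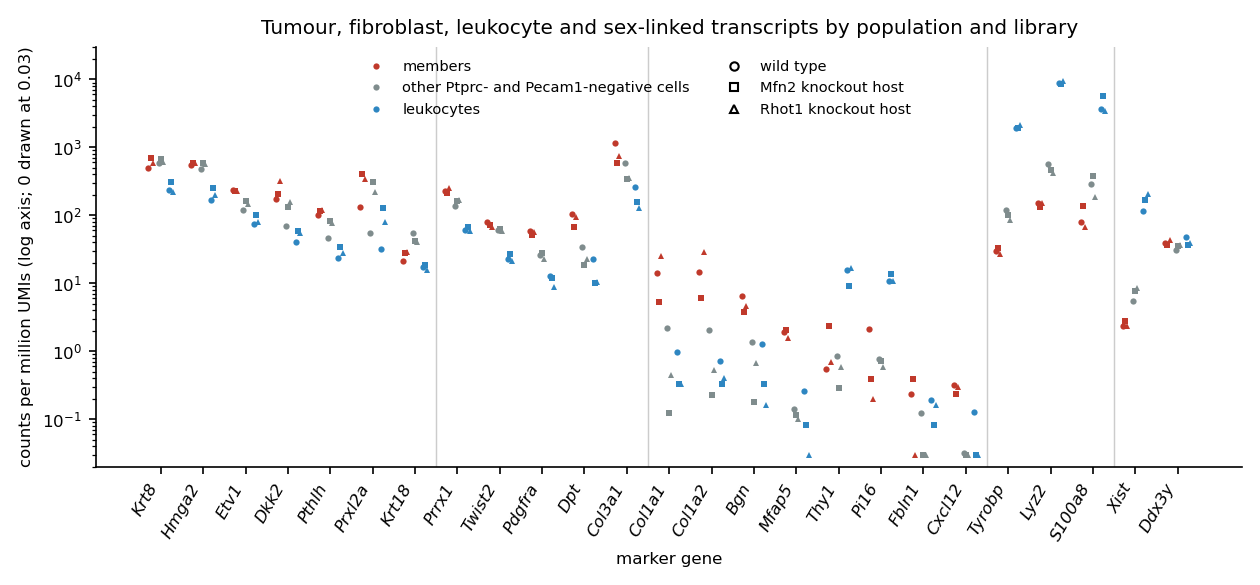
Points give CPM (y axis, log scale) of marker genes (x axis) in members, other Ptprc- and Pecam1-negative cells and leukocytes, with 1 symbol per library. Krt8, Hmga2, Prrx1 and Pdgfra sit high in members and in the other negative cells, while Thy1 stayed at or below 2.36 CPM in members.

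Sex-linked transcripts gave a readout that the rule did not use. The Y transcripts Ddx3y, Eif2s3y, Kdm5d and Uty summed to 77.5, 75.2 and 83.2 CPM in members and were seen in 59.5%, 57.4% and 62.2% of them, against 63.7, 71.8 and 72.8 CPM in the other negative cells. Xist, the transcript of the inactive X chromosome, stood at 2.34, 2.75 and 2.38 CPM in members, 5.41, 7.73 and 8.52 CPM in the other negative cells and 115, 169 and 204 CPM in leukocytes. It was seen in 1.79%, 2.35% and 2.16% of members and 13.6%, 26.1% and 30.8% of leukocytes, whose median depths were 3925, 3722 and 4394 UMIs. Y transcripts did not set members apart from leukocytes, which held 100.3, 79.6 and 88.1 CPM, while Xist was lower in members than in leukocytes of all 3 libraries. The sex of the hosts is not given in the labels.

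Members were not uniform, and 12 of them stood apart. Clustering the members without the 3 rule genes gave 9 clusters at the resolution used, 8 at a lower and 10 at a higher one, and the boundaries of the large clusters also shifted with the numeric precision of the components. The 12 cells were the same at each of these resolutions. The largest 5 held 2659 cells (87.0%), and 98.5% to 99.8% of their cells carried a Krt8, Krt18 or Hmga2 UMI. Cluster 0 (762 cells) was led by Arhgdig, Gap43 and Dkk2, cluster 1 (567 cells) by the proliferation genes H1f5, Nusap1 and Hmmr, and cluster 2 (490 cells) by Txnip, Ly6c1 and Vegfd. Cluster 3 (456 cells) was led by the metallothioneins Mt1 and Mt2 and by Adm, and cluster 4 (384 cells) by Mmp12, Fn1 and Cp. Tumour-marked members thus included dividing cells, with Mki67 at 290 CPM in cluster 1, and cells with little of it, with 6.90 CPM in cluster 4, where Lum stood at 1257 CPM and Dpt at 246 CPM. Cluster 3 held Ndrg1 and Slc2a1, genes raised by hypoxia, at 934 and 405 CPM. The clusters pool cells of 3 libraries, in unequal parts. Cluster 4 held 337, 25 and 22 cells by library, or 22.3%, 2.93% and 3.165% of the members. Cluster 0 went the other way, at 15.9%, 32.2% and 35.5% of the members. With 1 library per genotype these differences were not tested.

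A small cluster of 12 members (0.393%; 7, 2 and 3 cells by library) was fibroblast-like. It was led by Col1a2 and Col1a1, the chains of collagen I, at 7919 and 6674 CPM, and held 93.5% of the 1417 collagen I UMIs of all members. Thy1 stood at 397 CPM (278 to 549), Mfap5 at 936 CPM (748 to 1158), Pi16 at 386 CPM (269 to 536), and Bgn, the proteoglycan biglycan, at 2225 CPM (1928 to 2554). Krt8 and Hmga2 had 4 UMIs each, or 44.1 CPM, against 576 and 569 CPM in the other 3045 members. By the measure of at least 1 UMI of Krt8, Krt18 or Hmga2, 7 of the 12 cells also counted as tumour-marked, with at most 2 such UMIs in a cell. In those 3045 members Col1a1 stood at 1.48 CPM, Thy1 at 0.313 CPM and Bgn at 1.15 CPM. Lum and Dcn were thus high in both kinds of cell, at 1454 and 4912 CPM in the 12 cells and 389 and 1850 CPM in the rest, whereas Mmp3 had 1 UMI in the 12 cells and stood at 262 CPM in the rest. Of the 12 cells, 3 held Xist, 5 held a Y transcript and 0 held both.

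Shallow members carried leukocyte genes. Clusters 5 and 7 (219 and 68 cells, median 937 and 838 UMIs) were led by macrophage genes such as Lyz2, Pf4 and C1qa and by the neutrophil genes S100a9, S100a8 and Retnlg, and 61.2% and 41.2% of their cells held a tumour transcript. They stay unnamed because of their depth. Members under 2000 UMIs numbered 116, 78 and 59, with a median of 1 rule UMI, so the threshold was met by a single molecule in many of them. S100a8, a neutrophil gene, stood at 6954, 9265 and 3827 CPM in these shallow members and at 53.7, 79.6 and 47.7 CPM in deeper ones. Scrublet marked 20, 12 and 4 members (1.33%, 1.41% and 0.576%) as doublets, and they were kept.

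Few genes set the members apart from the other negative cells by 2-fold, and this contrast is the rule's own, so it is a description. Of 2996 genes at 50 CPM or more, 7 (0.234%) were past 2-fold higher in all 3 libraries, and 3 of these were the rule genes. Leaving out the Mfn2 library raised the count to 12. The others were Dpt, Clu (clusterin, a secreted chaperone), Thbs2 (a matrix glycoprotein) and Sat1 (the enzyme of polyamine acetylation). Thbs2 stood at 110, 116 and 97.4 CPM against 46.2, 49.7 and 37.1 CPM, ratios of 2.38 (2.26 to 2.51), 2.33 (2.19 to 2.47) and 2.63 (2.44 to 2.82). Clu ratios were 2.63, 2.95 and 3.24, Sat1 ratios 2.77, 2.04 and 2.71, and Dpt ratios 3.04, 3.56 and 4.17. Lower by 2-fold in all 3 libraries were 18 genes (0.601%), and the 12 with the largest drop were genes of myeloid cells and platelets, among them Arg1, Pf4, Lyz2, S100a8 and Tyrobp. The leukocyte list summed to 106, 109 and 104 CPM in members and 396, 326 and 299 CPM in the other negative cells. When cells with any UMI of Tyrobp, Fcer1g or Laptm5 were left out of both populations, 685, 419 and 331 members remained. There 3 genes were lower by 2-fold in all 3 libraries, H1f5, Pclaf and Spc24, which serve chromatin and division. The rule genes aside, Dpt, Clu, Thbs2, Sat1 and Ccl7 were past 2-fold higher there.

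Cell cycle genes were lower in members. All 13 G2/M genes and all 12 S phase genes were lower in all 3 libraries, beside 46.1% of all genes, with median log2 ratios of -0.72 and -0.35. Mki67, a proliferation marker, stood at 87.1, 102 and 106 CPM against 202, 176 and 220 CPM, and Cdc20 at 39.3, 49.1 and 43.3 CPM against 86.7, 81.5 and 93.1 CPM. Across bands of the rule level Mki67 was lower at each step from 2 to 5 upward, from 163, 139 and 213 CPM to 22.4, 80.8 and 19.3 CPM at 50 or more. Krt8 and Hmga2 stayed between 426 and 724 CPM in the same bands. The inhibitor gene Cdkn1a stood at 67.5, 90.2 and 87.8 CPM in members and 63.7, 84.8 and 74.0 CPM in the other negative cells.

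**Figure D3:**
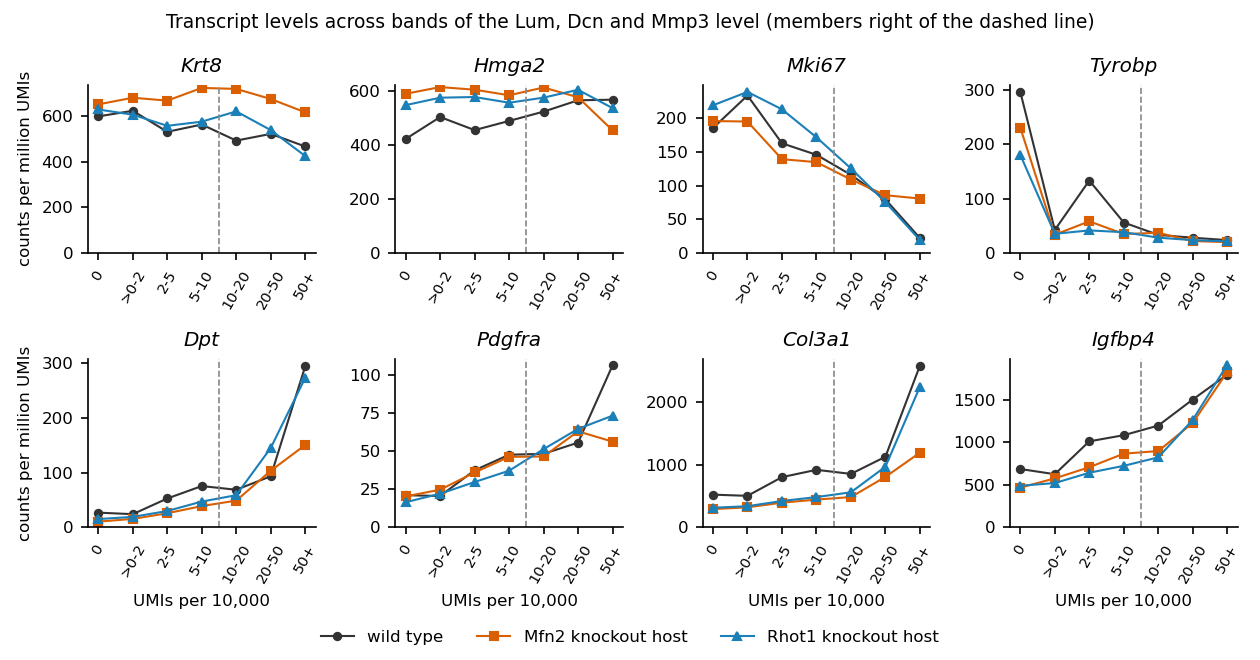
Lines give CPM (y axes) of 8 genes across bands of Lum, Dcn and Mmp3 UMIs per 10000 (x axes), 1 line per library, with members right of the dashed line. Wild-type Mki67 ends at 22.4 CPM and wild-type Col3a1 at 2577 CPM in the highest band.

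Most collagen genes at a mean of 10 CPM or more were higher in members of all 3 libraries. Collagen I, below that level, was higher as well, with Col1a1 ratios of 6.45, 42.7 and 55.9 over the other negative cells. The 12 fibroblast-like cells held 93.5% of the members' collagen I UMIs. Col3a1, the collagen III chain, stood at 1176, 593 and 756 CPM in members and 596, 339 and 358 CPM in the other negative cells, and Col5a2 at 48.7, 11.9 and 18.4 CPM against 15.4, 3.44 and 4.28 CPM. The 3 fibrillar genes at a mean of 10 CPM or more, with Col5a1, had a median log2 ratio of 0.95, which was 1.86 at a threshold of 20 per 10000, 1.36 without the Mfn2 library and 0.69 without the wild-type library. Of 8 other collagen genes at that level, 7 were higher in all 3 libraries, beside 20.8% of all genes, with a median of 0.41. Col8a1, below that level, was lower in all 3, at 2.85, 0.943 and 1.49 CPM against 9.91, 4.14 and 5.65 CPM. Among these, Col6a1 stood at 176, 256 and 191 CPM against 148, 144 and 108 CPM, and Col6a3 at 244, 102 and 113 CPM against 141, 55.0 and 69.2 CPM. Outside the 12 fibroblast-like cells, Col3a1 stood at 906 CPM in members and Col1a1 at 1.48 CPM, so collagen III was transcribed in cells nearly without collagen I.

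Among small leucine-rich proteoglycans, Lum and Dcn stood alone in level. Bgn, Aspn and Ogn were at 6.46, 8.92 and 6.78 CPM or lower in members, and Omd, Prelp and Podn at 1.55 CPM or lower. Aspn and Bgn were nevertheless higher in members of all 3 libraries. Aspn stood at 8.92, 4.48 and 8.14 CPM against 2.95, 0.307 and 0.492 CPM, and Bgn at 6.46, 3.77 and 4.57 CPM against 1.38, 0.182 and 0.683 CPM. The Bgn excess lay mainly in the 12 fibroblast-like cells, and outside them Bgn stood at 1.15 CPM in members. A single cell held 23.9%, 56.3% and 45.7% of the members' Bgn UMIs. Ogn was not higher in the wild-type library, at 6.78 CPM against 7.82 CPM. Fmod had 0 UMIs in every library, which allows up to 0.119, 0.236 and 0.298 CPM. In members thinned to 2000 UMIs, Lum and Dcn were found together in 36.7%, 16.1% and 26.6% of cells. Lum was seen in 56.5%, 30.2% and 47.7% of thinned members with Mmp3 and in 39.8%, 16.0% and 26.8% of those without. Dcn went the other way in all 3 libraries, and was seen less often in thinned members with Mmp3 than in those without. Members were chosen by the sum of Lum, Dcn and Mmp3, which ties these shares to each other. The shares therefore cannot show whether Lum and Mmp3 are expressed together beyond the rule.

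Several metalloproteinase genes were higher in members, and Mmp8 and Mmp9 were lower. Mmp14 (a membrane-bound collagenase) stood at 314, 319 and 328 CPM against 152, 225 and 202 CPM, and Mmp2 (gelatinase A) at 19.3, 22.3 and 16.4 CPM against 5.99, 7.34 and 8.05 CPM. All 6 metalloproteinase genes outside the chromosome 9 cluster that reached a mean of 10 CPM were higher in all 3 libraries, beside 20.8% of all genes, with a median of 0.67. Mmp9 (gelatinase B) stood at 8.21, 2.91 and 2.98 CPM against 17.5, 6.91 and 6.02 CPM, and the neutrophil collagenase gene Mmp8 at 1.82, 4.01 and 0.794 CPM against 6.65, 13.8 and 4.16 CPM. The inhibitor gene Timp2 stood at 489, 433 and 397 CPM against 280, 283 and 271 CPM. Within the cluster, Mmp10 stood at 37.9, 7.62 and 6.26 CPM in members and 2.21, 0.887 and 0.604 CPM in the other negative cells, while Mmp13 stood at 27.8, 2.04 and 3.48 CPM against 6.07, 2.33 and 2.68 CPM. The Mmp13 ratio was 4.57 (4.04 to 5.19) in the wild-type library, and its interval included 1 in the Mfn2 library (0.559 to 1.32) and the Rhot1 library (0.884 to 1.86). Leukocytes held Mmp13 at 37.8, 18.0 and 27.1 CPM and Mmp8 at 59.1, 196 and 112 CPM.

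The members led by Mmp3 carried Mmp10 and Mmp13 at higher levels than those led by Dcn. Among members with 2000 or more UMIs, Mmp10 stood at 120, 28.0 and 28.8 CPM in Mmp3-led cells and 30.1, 6.16 and 4.01 CPM in Dcn-led cells, with 114, 57 and 53 cells in the first group. Mmp13 stood at 164, 13.4 and 11.8 CPM against 10.7, 0.997 and 2.95 CPM. A single cell held 47.7% of the Mmp13 UMIs of the wild-type Mmp3-led cells, and without the top cell of each group the values were 86.6, 11.6 and 7.99 CPM against 10.2, 0.726 and 2.48 CPM. The genes flanking Mmp3 were low, with Mmp1b and Mmp1a at no more than 0.507 and 3.93 CPM in Mmp3-led cells. Mmp1a was still above its level in Dcn-led cells, at 2.03, 3.66 and 3.93 CPM against 0.678, 0.634 and 0.589 CPM. Those Mmp3-led values rest on 4, 3 and 3 UMIs. Mmp12 stood at 118, 20.7 and 5.24 CPM in Mmp3-led cells against 27.9, 2.72 and 6.84 CPM in Dcn-led cells, so it was not higher in the Rhot1 library. The promoters shown above are those of Mmp3, Mmp10 and Mmp13. Lum-led members, 174, 43 and 52 cells, stood out by Dpt at 235, 93.3 and 159 CPM and Fn1 at 575, 101 and 176 CPM, against 90.6, 65.0 and 89.0 CPM and 211, 41.3 and 79.7 CPM in Dcn-led members. Mmp13 stood at 62.7, 4.59 and 1.42 CPM in Lum-led members, on 146, 3 and 1 UMIs, with 48.6% of the wild-type UMIs in 1 cell. All 3 groups carried Krt8 at 491 to 732 CPM. The AP-1 genes Fosl1 and Jun stood at 134, 162 and 144 and at 993, 893 and 902 CPM in members, against 120, 167 and 134 and 850, 837 and 759 CPM in the other negative cells, and the list of AP-1 and immediate early genes had a median log2 ratio of 0.13.

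Secreted signals were higher in members in part. Of 13 genes of the inflammatory fibroblast list at a mean of 10 CPM or more, 9 were higher in all 3 libraries, beside 20.8% of all genes, and Csf1 and Lcn2 were lower. Ccl2, a monocyte chemokine, stood at 1537, 861 and 888 CPM against 498, 528 and 469 CPM. Il33, a nuclear alarmin, stood at 135, 31.7 and 17.0 CPM against 7.51, 6.37 and 3.30 CPM, and its receptor gene Il1rl1 at 113, 50.3 and 56.6 CPM against 33.6, 27.2 and 26.1 CPM. Il6 and Ptx3 were at or below 0.199 CPM. The EGF receptor ligand genes Areg and Ereg stood at 241, 189 and 169 CPM and 99.3, 67.8 and 64.0 CPM, against 88.7, 144 and 115 CPM and 28.5, 49.3 and 41.1 CPM. Of 13 hypoxia and glycolysis genes, 11 were higher in all 3 libraries, again beside 20.8%, with a median of 0.28. Ndrg1 stood at 519, 464 and 344 CPM against 142, 239 and 173 CPM. The heat shock and dissociation stress list had a median of -0.12.

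**Figure D4:**
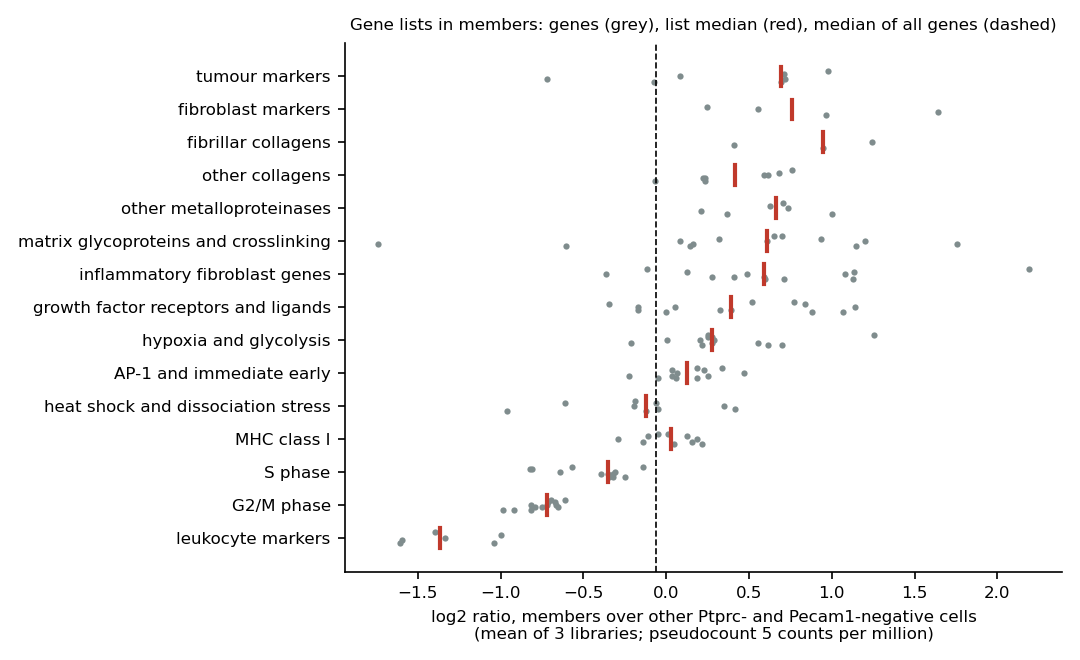
Each grey point is a gene's log2 ratio of members over the other negative cells (x axis, mean of 3 libraries), by list (y axis), with list medians in red and the median of all genes dashed. The fibrillar collagen median lies at 0.95 and the G2/M median at -0.72, with the median of all genes at -0.06.

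Between genotypes, members differed by 2-fold in few genes. The same wild-type members serve as reference for the Mfn2 and the Rhot1 values. In the Mfn2 library 1 of 3035 genes (0.0329%) was past 2-fold higher than in wild-type members and 12 (0.395%) were past 2-fold lower. In the Rhot1 library 5 of 3108 genes (0.161%) were past 2-fold higher and 9 (0.290%) lower. Genes named below are given with their ratio or level in the other negative cells of the same libraries, since a difference there is not about members. List medians and Cxcl2 are given for members only.

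Prxl2a, which encodes a peroxiredoxin-like protein, led the higher genes. It stood at 131, 401 and 340 CPM in members, which is 3.06 times (2.93 to 3.20) and 2.59 times (2.47 to 2.72) the wild-type level. In the other negative cells its ratios were larger, 5.60 and 4.01. In the Rhot1 library S100a4, a metastasis-linked calcium-binding protein, stood at 1495 CPM against 715 CPM in wild-type members, a ratio of 2.09 (2.05 to 2.14), while the ratio was 0.885 in the other negative cells. Ptn, the growth factor pleiotrophin, stood at 59.9 against 21.9 CPM (2.74, 2.43 to 3.08), with a ratio of 1.93 in the other negative cells. Ly6c1 was 2.20 times (2.10 to 2.31) its wild-type level among members and 1.04 times among the other negative cells. It was a leading gene of cluster 2, which held 11.4%, 16.1% and 26.0% of the members by library. The part of that cluster's size in the Ly6c1 ratio was not tested.

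Fn1, Il33 and Atf3 led the lower genes in both knockout libraries. Il33 stood at 135 CPM in wild-type members, 31.7 CPM in Mfn2 members and 17.0 CPM in Rhot1 members. Its ratios were 0.236 (0.212 to 0.261) and 0.126 (0.108 to 0.147) in members, and 0.848 and 0.440 in the other negative cells. Fn1, fibronectin, stood at 240, 47.6 and 90.4 CPM, ratios of 0.198 (0.182 to 0.215) and 0.376 (0.350 to 0.403), with 0.308 and 0.366 in the other negative cells. A single cell held 10.5% of Fn1 UMIs and 14.0% of Il33 UMIs of the Rhot1 members. The stress factor gene Atf3 stood at 155, 51.6 and 42.7 CPM, and Cxcl1, a neutrophil chemokine, at 412, 174 and 197 CPM. In the other negative cells the Atf3 ratios were 0.486 and 0.389, and the Cxcl1 ratios 0.682 and 0.798. The heat shock gene Hspa1b was also highest in the wild-type library, at 36.6, 13.8 and 9.93 CPM in members. It stood at 30.3, 14.8 and 13.7 CPM in the other negative cells and 125, 33.4 and 47.6 CPM in leukocytes. Dnajb1 stood at 200, 117 and 84.3 CPM against 114, 102 and 80.6 CPM. Hspa8 stood at 939, 954 and 926 CPM against 1033, 1015 and 1024 CPM. A link to the Atf3 and Cxcl1 ratios was not tested. Col6a3 ratios of 0.420 and 0.465 in members were close to the 0.391 and 0.491 of the other negative cells. Fn1 and Cxcl1, like Mmp12, Mmp13 and Col5a2 below, were among the leading genes of cluster 4, which was mostly wild-type cells. Atf3 was a leading gene of cluster 3, which held 17.9%, 16.9% and 6.04% of the members by library. How much of these genes' ratios came from the sizes of those clusters was not tested.

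Wild-type members also held more of the rule genes, so the same genes were read in members at 10 to 20 rule UMIs per 10000 only, 610, 574 and 447 cells. There Fn1 ratios were 0.189 (0.165 to 0.216) and 0.256 (0.223 to 0.293). Il33 ratios were 0.375 (0.320 to 0.439) and 0.258 (0.208 to 0.316). All were below 1 within the same band of the rule genes' sum. The single rule genes were not matched. Lum stood at 228, 97.8 and 151 CPM and Mmp3 at 167, 104 and 134 CPM in this band, with Dcn at 1096, 1182 and 1108 CPM. Prxl2a ratios were 2.93 and 2.51. S100a4 was 1.69 times the wild-type level in the Rhot1 library, below the 2-fold mark.

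Among lists with 3 or more genes at 50 CPM or more, that of inflammatory fibroblast genes had the lowest median against wild type within members. Its 10 genes at 50 CPM or more had median log2 ratios of -0.91 in the Mfn2 and -0.86 in the Rhot1 library, where all tested genes had medians of 0.01 and 0.03, and 4 of 10 were past 2-fold lower in each, beside 0.395% and 0.290% of all tested genes. Il33, Cxcl1 and Cxcl2 were past 2-fold in both, Il1rl1 in the Mfn2 library and Ptgs2 in the Rhot1 library. The Rhot1 ratio of Ptgs2 was 0.402 in members and 0.643 in the other negative cells. Mmp10, Mmp12 and Mmp13, below 50 CPM, had ratios of 0.201, 0.116 and 0.0736 in the Mfn2 library and 0.165, 0.225 and 0.125 in the Rhot1 library. Col3a1 ratios were 0.504 and 0.643, and Col5a2 ratios 0.245 and 0.378. In the other negative cells these genes were lower in both knockout libraries too. There Col3a1 stood at 596, 339 and 358 CPM and Col5a2 at 15.4, 3.44 and 4.28 CPM. Mmp10 stood there at 2.21, 0.887 and 0.604 CPM, Mmp12 at 9.265, 4.82 and 6.26 CPM, and Mmp13 at 6.07, 2.33 and 2.68 CPM. The tumour markers Krt8 and Hmga2 had ratios of 1.39 and 1.09 in the Mfn2 library and 1.16 and 1.06 in the Rhot1 library.

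**Figure D5:**
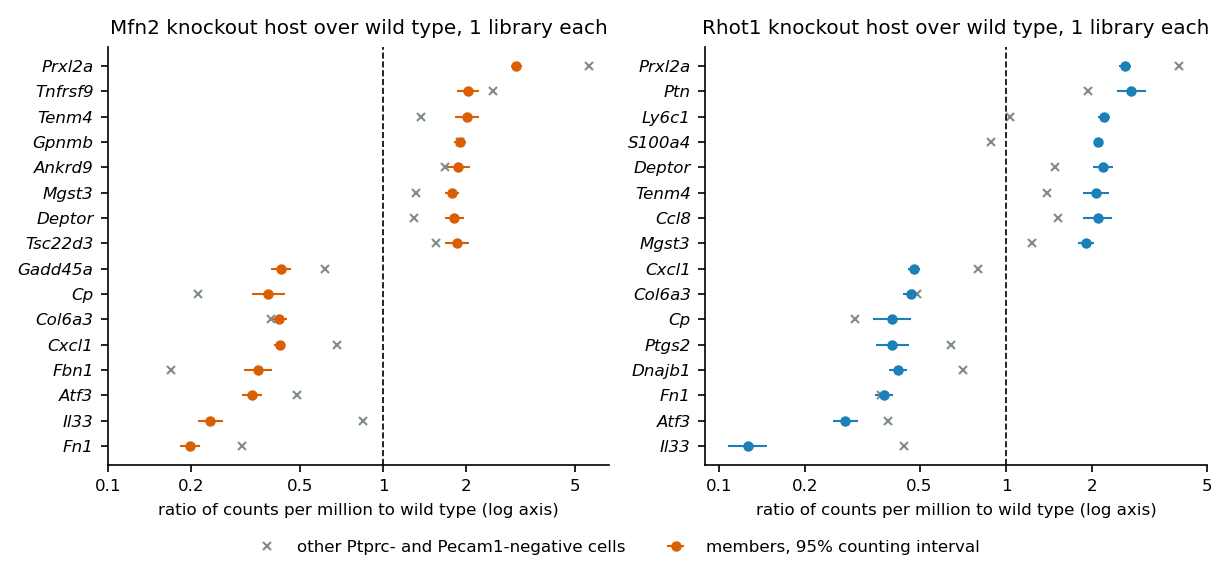
Points give ratios to wild type (x axis, log scale) of the named genes (y axis) in members with 95% counting intervals, and crosses give the ratio in the other Ptprc- and Pecam1-negative cells, 1 library per genotype. Il33 lies at 0.236 and 0.126 in members, with crosses at 0.848 and 0.440.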

How the data were processed

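RNA of single cells was captured in droplets at its 3' end, with 1 library for each of 3 host genotypes, after collagenase IV (2 mg/ml, 1 h), a 70 µm filter and a sort for live cells, per the labels' protocols. The deposited matrices give UMI counts as whole numbers for each gene and barcode, and per the file headers Cell Ranger 7.0.0 wrote them. The submitters' processing notes name mm10 as the build. Which annotation was used, and whether intronic reads counted, is not given in the sources used here. Coordinates come from GENCODE M21 (GRCm38), which held 94.1% of the files' 55357 gene identifiers.

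The members, gene lists and comparisons were chosen with earlier results of these data known. The rule stated at the opening was applied to the counts, and UMIs were summed per gene, library and population and divided by the population's total (CPM). A pseudocount of 5 CPM was added before taking log2 ratios. Genes were counted as past 2-fold among those at 50 CPM or more, in members or the other negative cells of each library, or in either library of a genotype comparison. List medians used genes at a mean of 10 CPM. Named genes were the members of the lists, up to 12 per direction past 2-fold in every library, and per genotype the 8 highest and 8 lowest by the interval bound nearest to 1. The rankings skipped Lum, Dcn, Mmp3, Ptprc, Pecam1, gene models without a name, and genes of mitochondria, ribosomes, haemoglobins and immunoglobulins.

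Shares have exact Clopper-Pearson intervals, levels have exact Poisson intervals, and ratios of levels have conditional binomial ones, all at 95% and for counting error alone; where a count was 0 the level of 3 counts is the limit given. Intervals of share ratios are log-normal. Clusters used scanpy 1.11.5 and leidenalg 0.10.2 (1998 variable genes, 30 principal components, 15 neighbours, resolution 0.5), and doublets Scrublet as in scanpy. The ratio code was tested on simulated counts.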

Additional observations from a re-analysis of the deposited data

How the results depend on the processing

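No paired analysis was possible because each genotype had 1 library. No result changed direction under any alternative run. The log2 share ratios of -0.91 (Mfn2) and -1.13 (Rhot1) were -1.11 and -1.31 among negative cells only, -0.62 and -0.84 at 2000 UMIs, -1.77 and -1.87 at a threshold of 20 per 10000, and -0.41 and -0.61 at a threshold of 5. The share with a tumour UMI, 94.6%, was 99.1% at 2000 or more UMIs, 98.6% with 3 or more rule UMIs, 97.4% with 500 genes and 10% mitochondrial UMIs, 97.1% at a threshold of 20 and 84.6% when members were chosen after thinning. The fibrillar collagen median of 0.95 was 1.38 with cells weighted alike, 1.29 without cells that held Tyrobp, Fcer1g or Laptm5, 1.86 at a threshold of 20, and 0.69 to 1.36 leaving out a library. Medians of the tumour and fibroblast lists moved by less than their counting spread.

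Genes higher in every library, 7, were 11 and 4 at minimums of 10 and 100 CPM, 12 at a threshold of 20, and 7 to 12 leaving out a library. Genes lower, 18, were 39 and 9 at those minimums, 73 with cells weighted alike, 3 without leukocyte-panel cells, and 18 to 26 leaving out a library. Mfn2 over wild type, 1 higher and 12 lower, gave 8 and 22 at 10 CPM, 3 and 20 with cells weighted alike, 4 and 7 at 10 to 20 per 10000, and higher counts of 3 without leukocyte-panel cells, 2 at a pseudocount of 1, 5 at a threshold of 20 and 2 at 5. Rhot1, 5 higher and 9 lower, gave 9 and 22 at 10 CPM, 8 and 16 without leukocyte-panel cells, 8 and 14 at a threshold of 20, 20 lower with cells weighted alike, and 2 and 3 higher at 10 to 20 per 10000 and at a threshold of 5. The causes were not tested. The alternative at 10 to 20 per 10000 and the other cluster resolutions were chosen after seeing the data. Leaving out the Mfn2 library gave 12 genes higher.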
